A study of Mus musculus with 20 samples.

Results

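The 6 genes described here encode the myosin heavy chains of skeletal muscle fibres: Myh4, Myh1, Myh2 and Myh7, which adult fibres use, and Myh3 and Myh8, which developing fibres use. They were named by gene symbol and not by a cut on measured values, with earlier results of these data known. They were taken from the 24340 genes of a table of dystrophic muscle and the 24313 genes of a table of injured muscle. All 6 were present in both tables, with 6 libraries in each. They account for 12 of the 20 libraries of the study, which also sequenced sorted macrophages.

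A myosin heavy chain is the motor protein of the thick filament, and the isoform a fibre makes largely sets how fast it shortens. In mouse limb muscle Myh4 encodes the fastest isoform, IIB, Myh1 encodes IIX, Myh2 encodes IIA and Myh7 encodes the slow isoform that is shared with heart. Myh3, the embryonic isoform, and Myh8, the perinatal or neonatal isoform, are normally switched off after birth and are made again by regenerating fibres, so they are widely used as markers of regeneration.

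The study asked how macrophages of skeletal muscle bear on regeneration and fibrosis, and used PLX73086, which inhibits CSF1R, a receptor that macrophages need to survive. In both experiments the drug was mixed into AIN-76A rodent diet at 200 mg per kg, and the controls ate AIN-76A without it. The dystrophic libraries came from female DMDmdx mice aged 8 months, which lack dystrophin, after 6 months on either diet, with 3 libraries per diet and 1 tibialis anterior per library. Control replicates 1 and 2 and PLX replicate 1 also carried the PDGFRaEGFP reporter, and the other 3 libraries did not. The injured libraries came from male C57BL/6J mice fed for 3 weeks, returned to regular chow for 3 days and then injured in the tibialis anterior by a means that the labels do not give. Muscle was taken 12 h after injury, with 1 library per diet, or 18 h after injury, with 2 libraries per diet. There was no uninjured library and no library from a mouse with dystrophin in the dystrophic experiment, so each diet could be compared only with its own control.

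All of these genes but Myh7 lie side by side on chromosome 11 and share short stretches of promoter sequence, which are shown here because the measurements concern how these neighbours were used. On mm10 the order along the plus strand was Myh3 (chr11:67078300-67102291), Myh2 (chr11:67171027-67197517), Myh1 (chr11:67200114-67224575), Myh4 (chr11:67237812-67260447) and Myh8 (chr11:67277124-67308633), a span of 230 kb. Myh7 lies apart on the minus strand of chromosome 14 (chr14:54968787-54994549). Promoter windows of 300 bases, from 250 bases before to 50 after the RefSeq start of each gene, were read from RefSeq (GRCm38.p6, the same assembly as mm10). For Myh1 (chr11:67199852-67200151) and Myh7 (chr14:54994577-54994876) this start lies upstream of the locus given above, and the Myh7 window holds no base of that locus. Stretches of these windows from 4 neighbours are printed in the direction of transcription, with capitals for a run that Myh4, Myh1 and Myh2 have in common and, in Myh8, for the inner part of that run. Pairs of these windows share other runs, some of them longer, which are left in lower case. The Myh4, Myh1, Myh2 and Myh8 stretches come from chr11:67237574-67237713, chr11:67199862-67200001, chr11:67170822-67170961 and chr11:67276995-67277128.
Myh4: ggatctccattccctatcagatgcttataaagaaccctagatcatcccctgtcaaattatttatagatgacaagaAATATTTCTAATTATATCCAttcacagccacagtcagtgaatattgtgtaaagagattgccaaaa
Myh1: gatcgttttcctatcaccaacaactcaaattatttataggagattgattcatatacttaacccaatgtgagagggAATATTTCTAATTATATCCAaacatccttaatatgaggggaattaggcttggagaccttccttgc
Myh2: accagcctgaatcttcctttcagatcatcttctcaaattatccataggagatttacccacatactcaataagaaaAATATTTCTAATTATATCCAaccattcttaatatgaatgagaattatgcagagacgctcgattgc
Myh8: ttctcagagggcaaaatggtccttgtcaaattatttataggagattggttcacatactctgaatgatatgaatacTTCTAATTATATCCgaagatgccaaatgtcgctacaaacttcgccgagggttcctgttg

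The run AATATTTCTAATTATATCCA stood 163 bases before the RefSeq start of Myh4, 165 before that of Myh1 and 130 before that of Myh2. It was picked as the longest run that these 3 windows share, so its presence in them was fixed in advance. The inner part was picked likewise with the Myh8 window added. Searched on both strands, the whole run was present in 3 of 32851 RefSeq promoter windows, and these 3 were the ones named. Its inner 14 bases, TTCTAATTATATCC, were also in the Myh8 window, 54 bases before the start, and in 4 of 32851 windows in all. Neither run was in the windows of Myh3 and Myh7. The MEF2 consensus, bound by a family of muscle transcription factors, had a match in the windows of Myh4, Myh1 and Myh8, upstream of the shared run, and in 3.19% of all windows. TATAAAA was in the windows of Myh4, Myh1, Myh3 and Myh2 and in 5.48% of all windows. It began 31 bases before the RefSeq start of Myh4, 32 before that of Myh1 and 29 before that of Myh3. In Myh2 it began 10 bases after the start, so distances from the start are not alike in meaning across these genes. The E-box CANNTG was in the windows of Myh4, Myh7, Myh3 and Myh8 and in 72.3%. The CArG box, bound by serum response factor, was in the window of Myh4 alone among the 6 and in 1.63% of all windows. The coding sequences are also alike: of all runs of 43 bases, the length of 1 read, another of the 6 transcripts contained 30.7% of those of Myh2, 29.7% of those of Myh1, 23.0% of those of Myh8 and 21.8% of those of Myh4, against 5.31% for Myh3 and 0.356% for Myh7. How such reads were shared out is not given in the sources used here, and the annotation has antisense transcripts that overlap Myh1 and the end of Myh2, so the levels of Myh1 and Myh2 are uncertain to that extent.

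Values are FPKM, fragments scaled to the length of the transcript and to all mapped fragments, as the authors deposited them, so levels of different genes can be compared per unit of length. The deposited tables give no read totals. Relative depth, read from the step between the lowest values, ran from 0.802 to 1.08 of control replicate 3 in mdx muscle and from 0.655 to 1.05 of PLX 18 h replicate 1 in injured muscle, where PLX 18 h replicate 2 was the shallowest. A pair of libraries stood apart from their groups in these genes, mdx control replicate 2 and injured PLX 18 h replicate 2, and values without them stand beside the results that they moved most. Fibre markers were high in every muscle library, with Acta1, the actin of skeletal muscle fibres, between 6327 and 18431 FPKM in injured muscle and at 25424 ± 1455 (SD, n = 3) in mdx controls. The labels do not say that all libraries of a group came from separate mice, so p-values measure the spread between these libraries. In whole muscle, fewer fibres of a type and less RNA per fibre cannot be told apart.

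In mdx muscle the adult fast isoforms dominated on both diets, with Myh4 above Myh1 and Myh1 above Myh2 in every library that had all 3 values. The ranges of these 3 genes over the libraries did not overlap. Myh3 and Myh8 came next, from 3.18 to 34.6 FPKM, with ranges that overlapped. Myh7 was the lowest of the 6 in every library, although its highest value exceeded the lowest of Myh3. The plot of FPKM by library shows this order beside that of injured muscle, where the developmental pair was mostly below 1 FPKM. Each table was scaled separately and the mice differed in age, sex and genotype, so levels in the 2 tables stand side by side without a test.

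**Figure D1:**
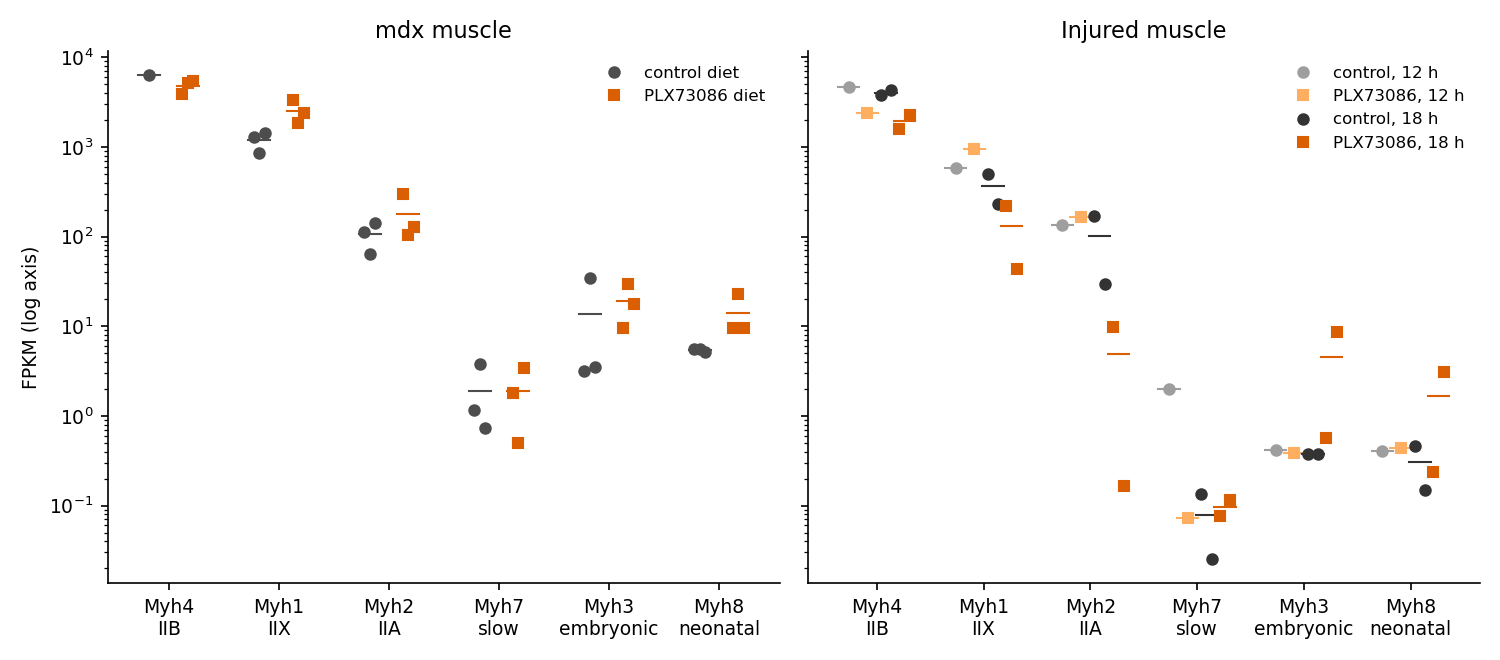
FPKM of the 6 myosin heavy chain genes on a log axis, with 1 point per library and a short line at the group mean, in mdx muscle (left) and injured muscle (right). Myh4 has 1 control point in mdx muscle because control replicates 1 and 2 have no value, and of the genes with a value in all 6 mdx libraries Myh1 and Myh8 are those whose diets do not overlap.

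Myh4, the IIB isoform, had a number in only 1 mdx control. Its level was 6336 FPKM in control replicate 3 and 3851, 5171 and 5363 FPKM in PLX replicates 1, 2 and 3, while control replicates 1 and 2 carry the text mark LOWDATA in place of a value. The mark was read as missing and not as a low level. All 3 PLX libraries were below the lone control, with a PLX mean of 4795 ± 823 (SD, n = 3). Myh4 was therefore left out of the test over all genes. A fit that dropped the 2 missing controls gave a log2 change of -0.42 ± 0.23 (SE, adjusted p = 0.430) and rests on that 1 control.

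Myh1, the IIX isoform, was higher on the inhibitor diet in every library. It stood at 1300, 859 and 1445 FPKM in control replicates 1, 2 and 3 and at 3324, 1824 and 2383 FPKM in PLX replicates 1, 2 and 3. The lowest PLX library was above the highest control, and the means were 1201.5 ± 305 and 2510.3 ± 758 (SD, n = 3 each). On the log2(FPKM + 1) scale the change was 1.05 ± 0.26 (SE), which did not pass the test over all 10197 genes (limma-trend with Benjamini-Hochberg adjustment, unadjusted p = 0.00478, adjusted p = 0.150). Without control replicate 2, the lowest library, the change was 0.83, and no alternative that was tried passed the test.

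Myh2, the IIA isoform, was at 112, 63.8 and 141 FPKM in the controls and at 294, 105 and 129 FPKM in the PLX libraries, in the order of the replicates. Only PLX replicate 1 exceeded every control, and the diets overlapped (0.66 ± 0.42, adjusted p = 0.475). Without control replicate 2 the change was 0.34, and leaving out each library in turn gave 0.22 to 0.96. Myh2 and Myh1 varied alike over the 6 libraries, with PLX replicate 1 highest and control replicate 2 lowest for both (r = 0.879 on the log2 scale, as a description over libraries that share their diet groups).

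Myh7, the slow isoform, was at 1.18, 3.74 and 0.733 FPKM in the controls and at 1.81, 0.497 and 3.41 FPKM in the PLX libraries. The diets overlapped fully, with the highest and next highest values on different diets (0.02 ± 0.48, adjusted p = 0.992).

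The developmental isoforms were expressed in every mdx library. Myh8, the neonatal isoform, was at 5.54, 5.599 and 5.13 FPKM in control replicates 1, 2 and 3 and at 9.55, 22.7 and 9.60 FPKM in PLX replicates 1, 2 and 3. The controls lay close together, every PLX library was above them, and PLX replicate 2 stood far above the rest. The change of 1.11 ± 0.30 (SE) did not pass the test (unadjusted p = 0.00702, adjusted p = 0.169). Without PLX replicate 2 the change was 0.72 (adjusted p = 0.135).

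Myh3, the embryonic isoform, was at 3.18, 34.6 and 3.55 FPKM in the controls and at 9.54, 29.6 and 17.8 FPKM in the PLX libraries. Control replicate 2 had the highest value of all 6 libraries while the other 2 controls had the lowest, so the diets overlapped (1.05 ± 0.82, adjusted p = 0.558). Without control replicate 2 the log2 change was 2.07 (unadjusted p = 0.00109, adjusted p = 0.127), the highest value when any 1 library was left out, and the lowest was 0.52, without control replicate 1. Control replicate 2 was not raised in Myh8, so the log2 ratio of Myh3 to Myh8 was 2.63 there and -0.80 and -0.53 in the other 2 controls.

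In all, 0 of the 5 myosins tested in mdx muscle passed the threshold, against 16 of 10197 genes (0.157%), and 2 of the 5 had an unadjusted p under 0.05, against 1648 of all genes. For 2 of these 5, Myh1 and Myh8, the diets did not overlap, which was also so for 23% of all genes tested.

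As a share of the summed FPKM of the 6 genes, Myh4 made up 79.9% in mdx control replicate 3, the only control with all values, and 51.4%, 72.3% and 67.8% in PLX replicates 1, 2 and 3. Myh1 made up 18.2% in that control and 44.4%, 25.5% and 30.1% in the PLX libraries. The ratio of Myh4 to Myh1 was 4.38 in the control and 1.16, 2.83 and 2.25 in the PLX libraries, all 3 below it. The summed level of the 6 genes differed less than their make-up, at 7931 FPKM in the control and 7490, 7153 and 7905 FPKM in the PLX libraries. These shares and ratios, with 1 control, were not tested.

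Leaving out Myh4 allowed all 6 mdx libraries to be used. Myh1 then made up 91.4%, 88.9% and 90.6% of the other 5 genes in the controls and 91.3%, 92.0% and 93.7% in the PLX libraries, which overlap (exact permutation test, two-sided, p = 0.2). Myh2 made up 7.86%, 6.59% and 8.81% in the controls and 8.09%, 5.30% and 5.08% in the PLX libraries (exact p = 0.3). The 2 developmental isoforms were highest relative to Myh1, Myh2 and Myh7 in control replicate 2 and PLX replicate 2, and the mean log2 ratio was -6.46 in controls and -6.43 in PLX libraries (exact p = 1). The smallest p that 3 against 3 libraries allow is 0.1, so none of these 8 tests could pass 0.05, and the lowest of them adjusted over the 8 was 0.8.

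**Figure D2:**
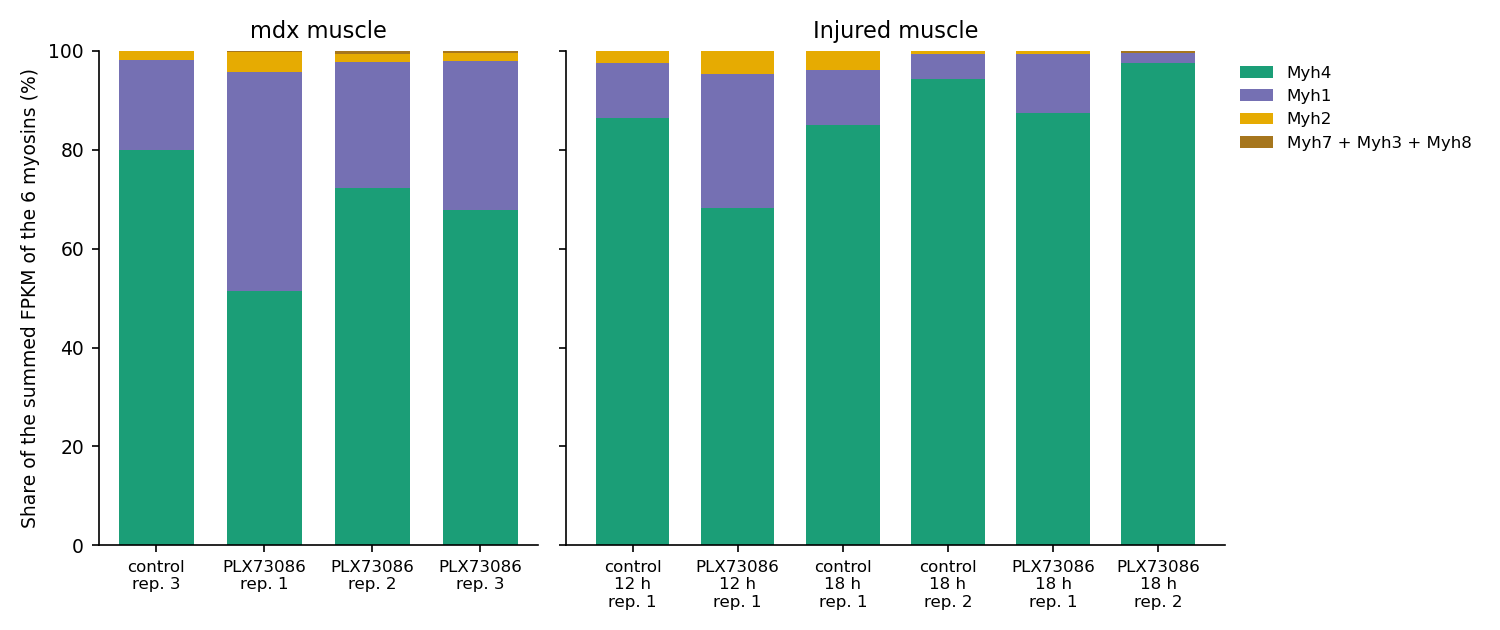
Share of the summed FPKM of the 6 myosin genes taken by Myh4, Myh1, Myh2 and the sum of Myh7, Myh3 and Myh8, with 1 bar per library that has a value for all 6 genes. Myh4 takes 79.9% in mdx control replicate 3 and 51.4% to 72.3% in the 3 mdx PLX libraries, and from 68.2% to 97.6% in injured muscle.

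Genes that work with the myosins were read from lists of partners. In mdx muscle 0 genes of any of these lists passed the threshold. All 7 partners of slow fibres had a positive log2 change (median 1.09, beside -0.00 for all genes tested), 3 of them with an unadjusted p under 0.05, and the median was between 0.71 and 1.24 when 1 library was left out. Among them Tnnt1, Tnni1 and Tnnc1, the troponin subunits of slow fibres, had changes of 1.203, 1.30 and 1.09 (adjusted p = 0.330, 0.345 and 0.539). Myoz2 and Casq2, also slow partners, were picked after their values were seen (1.27 and 0.78, adjusted p = 0.0892 and 0.124). The change of Myh7 itself was 0.02, and its level was far lower than that of Tnni1, at 1.88 ± 1.63 against 32.5 ± 28.3 FPKM in controls (SD, n = 3).

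All 6 tested partners of fast fibres had a negative change (median -0.34), 3 with an unadjusted p under 0.05, although Myh1, a fast isoform, had a positive one. Tnnt3, Tnni2 and Tnnc2, the fast troponin subunits, had changes of -0.17, -0.09 and -0.13. Larger changes were seen for Actn3, the alpha-actinin of fast fibres, and Pvalb, the calcium buffer of the fastest fibres, which were picked after their values were seen (-0.76 and -0.72, adjusted p = 0.0892 and 0.102). Atp2a1, the calcium pump of fast fibres, carries the same text mark as Myh4 in part of the controls and was not tested.

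The other partner lists were mixed in mdx muscle. An unadjusted p under 0.05 was seen for 4 of 7 genes of the light chain list, 2 of 7 binding and M-band genes and 1 of 7 chaperone and turnover genes. It was also seen for 4 of 12 regulators and 1 of 8 regeneration genes. The light chain list includes Mylk2, a kinase gene and not a light chain, which was among its 4. This list had a median of 0.25 with 4 positive and 3 negative. Mylpf, Myl1 and Myl2, the fast regulatory, fast essential and slow regulatory chains, had changes of -0.20, -0.11 and 0.25. Genes of myosin binding proteins and the M-band had a median of -0.10 with 3 positive and 4 negative, and Mybpc2, the fast myosin binding protein C, Mybpc1, the slow one, and Mybph, a related protein, had changes of -0.60, 0.27 and -0.10. Chaperones and turnover genes had a median of 0.14, with Unc45b, Smyd1 and Hsp90aa1, which help myosin to fold, at -0.25, -0.11 and 0.09. Regulators of fibre type had a median of -0.10 with 5 positive and 7 negative, with the transcription factor Six4 and the cofactor Eya1, which promote fast fibre genes, at -0.13 and 0.11.

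Regeneration genes had 7 positive and 1 negative change in mdx muscle with a median of 0.36. Myod1 and Myog, transcription factors of muscle differentiation, and Cdh15, a cadherin of muscle precursors, had changes of 0.12, 0.16 and -0.04. The summed level of this list was 255, 585 and 210 FPKM in control replicates 1, 2 and 3 and 316, 543 and 417 FPKM in the PLX libraries. It was highest in control replicate 2 and PLX replicate 2, the same libraries in which Myh3 was highest. Other myosin heavy chain genes gave 4 positive changes among 4 tested (median 0.18). Those tested were Myh14, Myh9, Myh10 and Myh11, the last of them also in the list of smooth muscle markers. Myh6, the alpha isoform of heart, Myh7b, Myh13 and Myh15 were under 1 FPKM in every mdx library and were not tested.

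Other measures also differed between the mdx diets. The summed level of 7 immediate early and stress genes was 86.7, 136 and 296 FPKM in the controls and 546, 694 and 625 FPKM in the PLX libraries. These do not overlap, which was also so for 23% of single genes tested. All 7 had a positive change (median 1.73, 0 past the threshold, 6 with an unadjusted p under 0.05). The summed level of 8 macrophage markers was 70.1, 455 and 138 FPKM in the controls and 62.9, 142 and 79.4 FPKM in the PLX libraries, with control replicate 2 highest, and 7 of the 8 had a negative change (0 past the threshold, 2 with an unadjusted p under 0.05). Summed fibre markers overlapped, from 46227 to 49668 FPKM in controls and from 44288 to 52905 FPKM on the inhibitor, and 4 heart markers summed to less than 1 FPKM in every library. The part of these measures in the myosin values was not tested.

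In injured muscle Myh4 was lower on the inhibitor diet at both times and was the 1 myosin that passed the test. Its level was 4595 FPKM in the control and 2399 FPKM in the PLX library at 12 h, 3785 and 4258 FPKM in control replicates 1 and 2 at 18 h, and 1585 and 2287 FPKM in PLX replicates 1 and 2 at 18 h. All 3 PLX libraries were below all 3 controls, and the control means were 1.91 times the PLX level at 12 h and 2.08 times at 18 h. The fitted log2 change was -1.03 ± 0.25 (SE, adjusted p = 0.0461), beside a median of -0.02 over all genes. This call lay close to the threshold: it was lost when any 1 of the 6 libraries was left out, with the change then from -1.17 to -0.87. Over the 16 alternatives that were fitted the adjusted p ran from 0.0219 to 0.2004.

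Of the 4 myosins tested for diet in injured muscle 1 passed, lower, against 1349 of 11578 genes (11.7%), of which 628 were higher and 721 lower. When libraries were scaled to the same summed FPKM, 2131 genes were called higher and 259 lower, the median of all genes moved to 0.29, and the change of Myh4 was -0.67 (adjusted p = 0.0417). Without PLX 18 h replicate 1 the number of genes called in the whole table fell to 0, with 2636 at an unadjusted p under 0.05. Of the 4 tested, Myh4 alone had its PLX libraries all on the same side of the controls of their time, as had 43.6% of all genes tested.

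Myh1 was higher on the inhibitor at 12 h and lower at 18 h. It stood at 584 FPKM in the control and 957 FPKM in the PLX library at 12 h, at 496 and 229 FPKM in control replicates 1 and 2 at 18 h and at 219 and 43.7 FPKM in PLX replicates 1 and 2 at 18 h. At 18 h both PLX libraries were below both controls, PLX replicate 1 by a small margin. The diet change over both times was -0.94 ± 0.74 (SE, adjusted p = 0.431), and it was -0.05 without PLX 18 h replicate 2.

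Myh2 followed the same order with a wider range. It was at 134 FPKM in the control and 163 FPKM in the PLX library at 12 h, at 170 and 29.9 FPKM in the controls at 18 h and at 9.75 and 0.163 FPKM in the PLX libraries at 18 h. Both 18 h PLX libraries were below both controls, and PLX replicate 2 was almost without Myh2. The mean at 18 h was 20.2 times higher in controls, while the fitted change over both times was -2.81 ± 1.24 (SE, adjusted p = 0.181) and -1.45 without PLX 18 h replicate 2. Over the 16 alternatives to that fit the adjusted p ran from 0.0535 to 0.412, and the lowest came from the 18 h libraries alone, where the change was -4.36.

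Within each diet at 18 h, replicate 2 was below replicate 1 for Myh1 and Myh2 but above it for Myh4. The replicates 2 share the first characters of their sample titles, which differ from those of the other 4 libraries. Over the 6 injured libraries Myh1 and Myh2 varied alike (r = 0.967 on the log2 scale), while Myh4 and Myh1 did less so (r = 0.335), as a description over libraries that share diet and time.

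Myh7 was near the limit of what the table shows. It was at 1.97 FPKM in the 12 h control, at 0.0718 FPKM in the 12 h PLX library and between 0.0253 and 0.133 FPKM in the 4 libraries of 18 h. Only the 12 h control was above 1 FPKM. Its mean was below the minimum of 1 FPKM, so it was not tested.

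The developmental isoforms were at trace levels in 5 of the 6 injured libraries. Myh3 was at 0.418 FPKM in the control and 0.383 FPKM in the PLX library at 12 h, at 0.376 and 0.371 FPKM in the controls at 18 h and at 0.568 and 8.55 FPKM in PLX replicates 1 and 2 at 18 h. Myh8 was at 0.407, 0.434, 0.457, 0.150, 0.234 and 3.09 FPKM in the same libraries. PLX 18 h replicate 2 was far above the other libraries for both, and it was also the library lowest in Myh1 and Myh2.

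The diet change of Myh3 was 0.98 ± 0.66 (SE, adjusted p = 0.357), and without PLX 18 h replicate 2 the gene fell below the minimum of 1 FPKM and could not be fitted. Myh8 was below that minimum with all libraries and was not tested. The order of levels in injured muscle was Myh4, Myh1 and Myh2 in each library but PLX 18 h replicate 2, where Myh3 and Myh8 stood above Myh2. The ranges of Myh1 and Myh2 overlapped over the libraries, as did those of Myh3, Myh8 and Myh7.

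As shares of the 6 genes, Myh4 took 86.4% in the control and 68.2% in the PLX library at 12 h, 85.0% and 94.3% in the controls at 18 h and 87.3% and 97.6% in the PLX libraries at 18 h. Myh1 took 10.99% and 27.2% at 12 h, 11.1% and 5.07% in the 18 h controls and 12.1% and 1.87% in the 18 h PLX libraries. The ratio of Myh4 to Myh1 ran from 2.51 in the 12 h PLX library to 52.3 in PLX 18 h replicate 2, with the diets overlapping at 18 h. Within the times, 12 orders of the labels are possible, so the smallest two-sided exact p is 0.167. Of 11 measures 4 reached it, each with an adjusted value of 0.458 over the 11: the log2 ratio of Myh2 to Myh1, the log2 ratio of developmental to adult isoforms, and the shares of Myh3 and Myh8. The log2 ratio of Myh2 to Myh1 had a mean of -2.20 in controls and -5.03 in PLX libraries, a difference of -2.83 (exact permutation p = 0.167). It was -8.06 in PLX 18 h replicate 2, without which the difference was -1.47, and leaving out each library in turn gave -4.04 to -1.47. The log2 ratio of developmental to adult isoforms was higher by 2.42 in PLX libraries, and by 1.16 without that library. The share of Myh3 was higher by 0.128 percentage points, and by 0.0144 without that library, and the share of Myh8 by 0.0453 and 0.00549. A share also depends on the sum of the 6 genes, which at 12 h was 5315 FPKM in the control and 3520 FPKM in the PLX library. At that time Myh3 itself was lower in the PLX library (0.383 against 0.418 FPKM), yet its share was higher (0.0109% against 0.00787%).

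The 6 genes together made up 0.709%, 0.695% and 0.614% of all FPKM in the injured controls, 0.724% in the PLX library at 12 h and 0.324% and 0.384% in the PLX libraries at 18 h. The 2 PLX libraries of 18 h were below the rest. In mdx muscle the same share was from 1.25% to 1.29% in the 4 libraries with all values.

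Time after injury changed none of the 4 myosins past the threshold, where 9 of 11578 genes (0.0777%) passed. The log2 change from 12 h to 18 h was -2.03 ± 0.79 for Myh1 (adjusted p = 0.230), -3.21 ± 1.32 for Myh2 (adjusted p = 0.245), -0.26 ± 0.27 for Myh4 (adjusted p = 0.605) and 0.72 ± 0.70 for Myh3 (adjusted p = 0.590). Myh1 and Myh2 had an unadjusted p under 0.05 (0.0377 and 0.0463), as had 2279 of the 11578 genes. These 2 changes depended on single libraries. Without the 12 h PLX library they were -0.79 and -0.89 (unadjusted p = 0.440 and 0.574), without the 12 h control -3.27 and -5.54 (adjusted p = 0.0660 and 0.0567), and without PLX 18 h replicate 2 -1.36 and -2.20 (unadjusted p = 0.0218 and 0.0504). The change of Myh3 was -0.05 without the 12 h PLX library. Each library of 18 h was below the 12 h library of the same diet for both genes, except that control replicate 1 at 18 h was above the 12 h control for Myh2. The direct test of whether the diet change differed between the times called 0 of the 4, against 7 of 11578 genes (0.0605%). It had 0 of the 4 at an unadjusted p under 0.05, against 2701 of all genes. Its estimates were -2.48 ± 1.36 for Myh1 (adjusted p = 0.326) and -4.65 ± 2.13 for Myh2 (adjusted p = 0.262), and they were -1.33 and -3.05 without PLX 18 h replicate 2. This fit assumes that each lone 12 h library varies like those of 18 h.

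**Figure D3:**
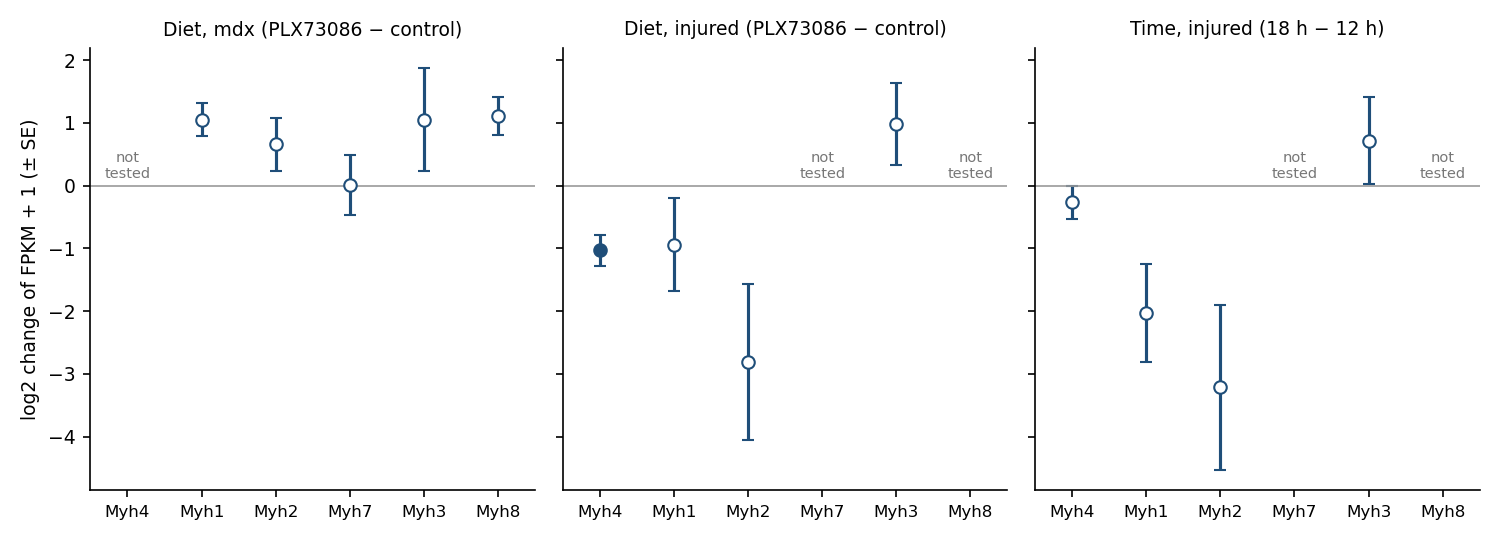
Fitted log2 changes of FPKM + 1 with standard errors for diet in mdx muscle, diet in injured muscle and time in injured muscle, with filled points for an adjusted p under 0.05 and open points for the rest. The 1 filled point is Myh4 for diet in injured muscle (-1.03), and genes with a missing value or a mean below 1 FPKM are marked as not tested.

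The partners of fast fibres were lower alongside Myh4 in injured muscle. Of 7 tested, 6 were lower on the inhibitor (median -1.37, beside -0.02 for all genes), led by Pvalb (-1.62, adjusted p = 0.0490), Casq1, the calcium store protein of fast fibres (-1.56, adjusted p = 0.0231), Tnni2 (-1.38, adjusted p = 0.0315) and Tnnt3 (-1.32, adjusted p = 0.0419). Chaperones and turnover genes had 5 of 7 lower (median -1.24), led by Hspb1, a small heat shock protein (-1.51, adjusted p = 0.0202), Trim54, a ring finger protein of the sarcomere (-1.36, adjusted p = 0.0154), Trim63, the ubiquitin ligase MuRF1 that acts on myosin (-1.30, adjusted p = 0.0229), and Unc45b, the myosin chaperone (-1.15, adjusted p = 0.0176). Genes of myosin binding proteins and the M-band had 4 of 7 lower (median -1.06), which were Mybph (-2.06, adjusted p = 0.0207), Myom2 (-1.13, adjusted p = 0.0306), Myom1 (-1.07, adjusted p = 0.0424) and Mybpc2 (-1.02, adjusted p = 0.0496).

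Regulators of fibre type had 6 of 11 lower in injured muscle (median -0.80), led by Rcan1, an inhibitor and target of calcineurin (-1.43, adjusted p = 0.0176), Vgll2, a muscle transcription cofactor (-0.97, adjusted p = 0.0255), and the factors Mef2d (-0.90, adjusted p = 0.0320) and Mef2c (-0.88, adjusted p = 0.0243). The light chain list had 1 of 7 lower, with a median of -1.06. This was Mylk2, which encodes the kinase of the regulatory light chain (-1.33, adjusted p = 0.0180), so no light chain itself passed. Partners of slow fibres had 0 of 7 past the threshold and 2 with an unadjusted p under 0.05, against 3563 of all genes. The median of these partners was 0.38, which was -0.24 without PLX 18 h replicate 2, and Tnnt1, Tnni1 and Tnnc1 had changes of 0.24, 1.07 and 0.66. Regeneration genes had 2 of 8 lower, Actc1, the cardiac actin that young fibres make (-2.80, adjusted p = 0.0271), and Myod1 (-1.29, adjusted p = 0.0271), with a list median of -0.02.

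These counts depended on single libraries. When 1 library was left out, between 0 and 3 of the fast partners, between 0 and 5 of the chaperones, between 0 and 5 of the binding and M-band genes and between 0 and 7 of the regulators were called lower, while their medians stayed negative. With summed FPKM scaling 7 of 7 fast partners, 4 of 7 chaperones, 1 of 7 binding and M-band genes and 2 of 11 regulators were called lower.

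**Figure D4:**
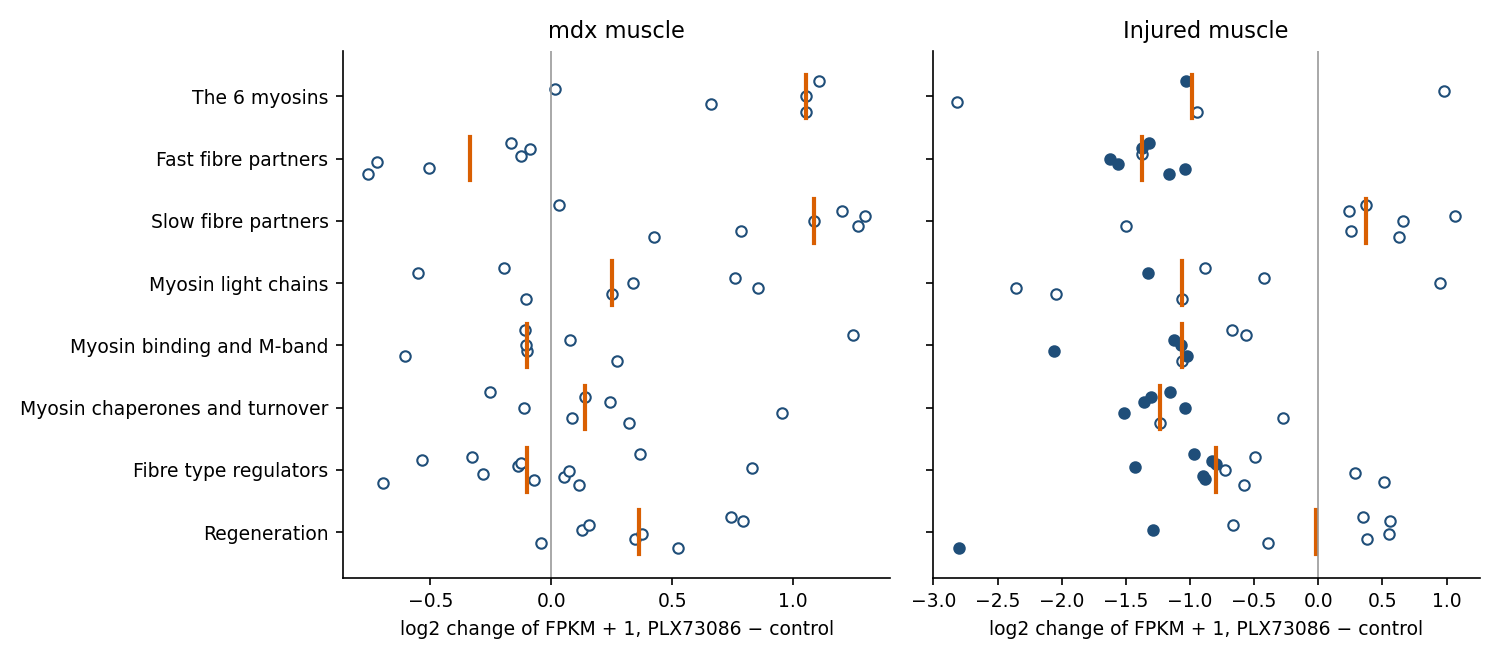
Log2 change of FPKM + 1 on the PLX73086 diet for each tested gene of the 6 myosins and 7 partner lists, in mdx muscle (left) and injured muscle (right), with filled points for an adjusted p under 0.05 and a vertical bar at each list's median. In injured muscle the fast partners lie near Myh4, between -1.62 and -1.04, and in mdx muscle no point is filled and the slow partners have a median of 1.09. The 2 panels have different horizontal scales.

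Markers of other cell types also differed between the diets in injured muscle. Of 8 macrophage markers 4 were higher on the inhibitor, which were Ptprc (1.04), Adgre1 (0.99), Mrc1 (0.91) and Csf1r (0.74, adjusted p = 0.0337), and their summed level was 1126 FPKM in the control and 1356 FPKM in the PLX library at 12 h, 1336 and 1526 FPKM in the 18 h controls and 2586 and 2558 FPKM in the 18 h PLX libraries. Of 7 fibre markers 3 were lower, Ckm, muscle creatine kinase (-1.28), Ryr1, the calcium release channel (-0.89), and Ttn, titin (-0.85). The summed fibre markers were 38795 FPKM in the control and 17841 FPKM in the PLX library at 12 h, 30472 and 35259 FPKM in the 18 h controls and 12995 and 16817 FPKM in the 18 h PLX libraries. Neutrophil markers had 1 of 5 higher, and their summed level was above the control of the same time in every PLX library. The 4 heart markers summed to 9.11 FPKM in the control and 3.38 FPKM in the PLX library at 12 h. At 18 h they summed to 27.4 and 56.6 FPKM in the controls and to 19.4 and 4.98 FPKM in the PLX libraries. Summed over all genes, FPKM was also lower in the 3 PLX libraries, at 486206 to 609574, than in the 3 controls, at 640395 to 749788. The part of these differences in the Myh4 result was not tested.

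The genes whose log2 level was most like that of each myosin over the 6 libraries of a table were picked by Pearson r. The search covered genes averaging 10 FPKM or more, 4375 of the mdx table and 5735 of the injured table. It left out the 6 myosins, predicted genes and pseudogenes. With so many genes and 6 libraries a high r is a description of these libraries alone. In injured muscle Myh4 was most like Myoz3 (r = 0.996), a fast fibre protein of the Z-disc, and Acta1 (r = 0.996), Myh1 was most like Patl1 and Mb, myoglobin (r = 0.983 and 0.979), and Myh3 was most like Gga1 and Myl4, the embryonic and atrial light chain (r = 0.988 and 0.965). Myl4 and Myh3 share the high value of PLX 18 h replicate 2. In mdx muscle Myh3 was most like Hmgn1 and Tnnt2, the cardiac troponin T that young fibres make (r = 0.991 for both), Myh1 was most like Rap1a and Atp5k (r = 0.998 and 0.995), Myh2 was most like Rnf114 and Lrpprc (r = 0.996 and 0.987), Myh8 was most like Txndc5 and Maged2 (r = 0.967 and 0.934) and Myh7 was most like Rsu1 and Cd47 (r = 0.964 and 0.932). The remaining pairs were Morc2a and Usp38 for Myh2, Nol10 and Tspan13 for Myh7 and Gga1 and Triobp for Myh8, all in injured muscle. There Myh8 had r = 0.933 with both of its genes and r = 0.974 with Myh3. Myh7 was above 1 FPKM in the 12 h control alone and Myh8 in PLX 18 h replicate 2 alone, so their pairs rest largely on those libraries.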

How the data were processed

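Messenger RNA of 12 whole-muscle libraries was measured from paired reads of 43 bases, per the labels. The values are FPKM as deposited by the authors, in 1 table for mdx muscle and 1 for injured muscle. Bowtie, STAR, Cufflinks and mm10 are named in the submitters' processing notes, with no versions or roles, and whether counting used the strand is not given in the sources used here. The lowest value is a floor of 0.01 FPKM, and since the tables give no depth there are no counting intervals. After removal of 27 entries of the injured table with names turned into dates, 24340 and 24313 genes remained. A text mark in place of a number was read as missing (3 genes in mdx muscle, Myh4 among them, and 10 in injured muscle).

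Samples were grouped by their labels. Values were transformed as log2(FPKM + 1), and genes averaging 1 FPKM or more with a value in every library were tested with limma-trend (limma 3.58.1, R 4.3.3), two-sided, with Benjamini-Hochberg adjustment over all genes and a threshold of 0.05. The model had diet for mdx muscle and diet and time for injured muscle, and a model of 4 group means tested whether the diet change differed between times. Shares and ratios within a library were compared by exact permutation tests. The fits were tested on simulated data. Other steps used numpy 2.4.6, scipy 1.17.1 and pandas 2.3.3 under Python 3.11.15, and figures matplotlib 3.10.9.

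The 6 members and the gene lists were chosen with earlier results of these data known. By rule, the genes named are the 6 members and, per member and table, the 2 genes with the highest r. Of each list they are up to 4 genes past the threshold by size or, where none passed, up to 3 in the order of the list. Outside this rule, Actn3, Pvalb, Myoz2 and Casq2 were picked after their values were seen. Others were named to describe levels, missing values or which genes were tested. The values of 1 list gene are not reported here. Alternatives were the pseudocount, the filter, 2 scalings, the variance trend, the reporter as a covariate, a block by title prefix, the times and each library left out. Counts over the lists under these alternatives were added after the data were seen.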

Additional observations from a re-analysis of the deposited data

Results flagged for a closer look

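Signal of the myosins also appeared in data outside the whole-muscle comparisons, in 2 tables of sorted cells with no control sample. Resident macrophages had Myh4 at 5.02 FPKM in the MHCII- GFP- gate, 3.66 FPKM in the MHCII- GFP+ gate, 4.98 FPKM in the MHCII+ GFP- gate and 3.54 FPKM in the MHCII+ GFP+ gate, with 1 library per gate. Infiltrating cells of day 4 had Myh3 at 1.08 FPKM in replicate 1 and 0.960 FPKM in replicate 2, with 0.0191 FPKM at day 2 and 0.291 FPKM at day 6. Other fibre genes were present in the same libraries, with Acta1 at 32.3 to 53.1 FPKM in the resident gates and at 1.60 to 41.8 FPKM in the infiltrating cells. Their part in the myosin values was not tested. Groups of fewer than 4 libraries cannot be searched for outliers, so none was searched here.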

How the results depend on the processing

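Of all genes, the number called for diet in mdx muscle was 16, and it was 0 with no filter, 33 with summed FPKM scaling, 8 with the reporter as a covariate and from 0 to 120 when 1 library was left out. For diet in injured muscle it was 1349, and it was 300 with no filter, 2390 with summed FPKM scaling, 462 with the replicate block, 2657 as the mean of both times, 2326 at 18 h alone and from 0 to 2246 without 1 library. For 18 h against 12 h it was 9, and it was 30 with a pseudocount of 10, 2 with no filter, 26 with a mean of at least 5 FPKM, 3 with the replicate block and from 2 to 1901 without 1 library. For the difference between times it was 7, and it was 0 with a pseudocount of 0.1, 2 with a mean of at least 5 FPKM, 22 with summed FPKM scaling and from 2 to 9 without 1 library.

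The 1 myosin called for diet in injured muscle, Myh4, was not called with no filter or with the replicate block (0 called), nor without any 1 library (from 0 to 0), and it was called under the other 8 alternatives. The block used the first characters of the sample titles. The labels do not say that these characters pair the samples. Over the genes tested, deviations from group means had r of 0.287, 0.355 and 0.0593 between same-prefix mdx libraries. Between mdx libraries of different prefix and diet, r ran from -0.315 to 0.0242. Each mdx library thus correlated best with its own prefix, as a hint from the data. At 18 h r was 0.275 within and -0.275 between prefixes, which mirror each other because each group has 2 libraries. In the limma fit with the block, 15 genes and 0 myosins were called in mdx muscle. There Myh1 changed by 1.05 ± 0.13 (SE, adjusted p = 0.0613). From 12 h to 18 h the block gave -1.18 for Myh1 and -1.80 for Myh2 (unadjusted p = 0.148 and 0.184).

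Signs turned for values that no test called. Myh7 in mdx muscle was -0.011 with a pseudocount of 0.1 and from -0.35 to 0.45 without 1 library. At 12 h alone the injured diet change was 0.71 for Myh1, 0.29 for Myh2 and -0.036 for Myh3. With Myh4 left out of the adult isoforms, the diet change in the ratio of developmental to adult isoforms in mdx muscle was -0.036 with 1 added to both values. It was from -0.58 to 0.997 (log2) without 1 library. Leaving out 1 library gave ranges of -0.62 to 1.09 for Myh3 over Myh8 in mdx muscle (log2) and -0.057 to 0.86 in injured muscle, -0.71 to 1.12 for Myh1 over Myh4 in injured muscle, -0.046 to 1.48 for Myh3 over time and -0.40 to 0.13 for the difference of the Myh4 diet change between times. In percentage points of a share of the 5 genes without Myh4, they were -0.165 to 0.00526 for Myh7, -1.08 to 0.596 for Myh3 and -0.110 to 0.332 for Myh8 in mdx muscle. For shares of all 6 genes in injured muscle, they were -9.14 to 2.85 for Myh4, -1.14 to 9.20 for Myh1, -1.97 to 0.687 for Myh2 and -0.0142 to 0.00277 for Myh7. The causes were not tested. Where a library left out leaves 1 in its group, that library is assumed to vary like the others.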
